A study of Rattus norvegicus with 8 samples.

Results

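The rows of the miR-129, miR-135a, miR-135b and miR-219 hairpins were followed in rat kidney after treatment with aristolochic acid (AA), a plant nephrotoxin and carcinogen whose metabolites bind DNA. They were found by name, with any letter case, locus number or arm suffix, and 11 of the 620 listed miRNAs matched. The families were selected on measured values of the same comparison, because the counts of 3 arms, rno-miR-219-2-3p, rno-miR-129-2* and rno-miR-135a*, were among the largest falls in the AA group. The AA and control values of these 3 arms are therefore a description without a test, while the other 8 rows entered by name only.

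The 8 libraries came from male Big Blue rats on the Fisher 344 background, a transgenic strain with a reporter gene for mutation assays. In the AA group, 4 rats were gavaged with the sodium salt of AA at 10 mg/kg on 5 days of each week for 12 weeks from an age of 6 weeks, and in the control (CTL) group 4 rats were given saline in the same way. The kidneys were taken 1 day after the last dose, and each library was made from 1 rat. The libraries held 13412373 to 15616670 reads on known rat miRNAs. Levels are given as raw reads and as CPM, read counts brought to a common library size with TMM factors, on which 1 read is worth 0.0543 to 0.0815 CPM.

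One label field names the tissue as liver, whereas the other labels and the methods name the kidney. The liver miRNA rno-miR-122 had 707, 55, 95 and 60 reads in the CTL libraries 1 to 4 and 9, 9634, 43 and 20 reads in the AA libraries, so that the second AA library and, less far, the first CTL library stood apart. The log2 changes of the miR-135a and miR-135b main arms, described further on, were -1.56 and -1.72 without that AA library and -1.27 and -1.41 without that CTL library. The 6 nephron miRNAs miR-30a, miR-30c, miR-30d, miR-192, miR-194 and miR-204 summed to 163900 to 235700 CPM in the CTL libraries and to 126500 to 180800 in the AA libraries.

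A miRNA hairpin is cut by Dicer into a short duplex, and usually 1 strand is kept in the silencing complex while the other, written with a star in older names, is degraded. The bases 2 to 8 of the kept strand, the seed, choose its target mRNAs. miR-129 and miR-219 are known chiefly from the nervous system, miR-219 as a regulator of myelin-forming oligodendrocytes, while miR-135a and miR-135b are known as repressors of Apc, a brake on Wnt signalling.

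Of the 11 rows, 9 were matched to a mature sequence in RefSeq (rat assembly GRCr8), which is later than the miRBase release the reads were counted on. The mature sequences are shown because they decide which rows can share reads, with the seed in capitals.
rno-miR-135a: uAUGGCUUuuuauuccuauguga
rno-miR-135b: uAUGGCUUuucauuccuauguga
rno-miR-135a*: uGUAGGGAuggaagccaugaaa
rno-miR-135b*: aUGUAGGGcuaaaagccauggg
rno-miR-129: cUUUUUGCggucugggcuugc
rno-miR-129-2*: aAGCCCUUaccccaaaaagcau
rno-miR-129-1-3p, not a row of the table: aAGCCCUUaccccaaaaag
rno-miR-219-5p: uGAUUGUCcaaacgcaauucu
rno-miR-219-1-3p: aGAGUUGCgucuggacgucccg
rno-miR-219-2-3p: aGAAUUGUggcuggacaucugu

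The 2 miR-135 main arms shared the seed AUGGCUU and differed by the single substitution U11C, with the base of rno-miR-135a first and positions counted from 1 at the 5′ end. No other of the 693 mature names in the RefSeq table carried that seed. The 19 nt of rno-miR-129-1-3p lie whole inside rno-miR-129-2*, so that a read of the shorter arm matches the longer one without a mismatch. The sequence of rno-miR-129 is listed for both miR-129 hairpins. That of rno-miR-219-5p is listed for the miR-219-2 hairpin and was found 1 time in the miR-219-1 hairpin too. The main arms of miR-129 and miR-219 therefore pool 2 loci, and their opposite arms do not, apart from the shared miR-129 bases. The opposite arms of the 2 miR-219 hairpins carried different seeds and 7 substitutions over 22 nt.

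The hairpins of the 3 arms that chose the families are shown with both mature arms in capitals, in each case the main arm first. They lie on GRCr8 at chr3:33516504-33516599 (minus strand, Mir219-2), chr7:28499166-28499265 (minus strand, Mir135a) and chr3:100657390-100657486 (minus strand, Mir129-2).
Mir219-2: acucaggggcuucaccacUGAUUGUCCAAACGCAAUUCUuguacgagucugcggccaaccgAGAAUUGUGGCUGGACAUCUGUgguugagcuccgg
Mir135a: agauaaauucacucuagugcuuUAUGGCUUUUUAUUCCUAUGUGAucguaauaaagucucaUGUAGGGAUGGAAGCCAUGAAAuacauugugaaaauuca
Mir129-2: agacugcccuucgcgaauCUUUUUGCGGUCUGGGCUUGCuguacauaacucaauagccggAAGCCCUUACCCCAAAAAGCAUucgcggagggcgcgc

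The 3 arms that chose the families were each the 3p arm of their hairpin, as is every opposite arm of these families. The main arms rno-miR-135a and rno-miR-135b, called lower too as described further on, are 5p arms. In the RefSeq annotation, Mir219-2 overlaps the protein-coding gene Cercam, a long noncoding RNA and, on the opposite strand, the hairpin Mir2964, whose mature rno-miR-219b is complementary to rno-miR-219-2-3p over 20 nt. rno-miR-219b was not a row of the table, and whether reads of the opposite strand entered the count is not given in the sources used here. Mir135a overlaps a long noncoding RNA, Mir129-2 overlaps no listed gene, and Mir135b lies at chr13:46191018-46191114 (plus strand) within the bounds of Lemd1 and Blacat1.

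In the AA group the 3 arms that chose the families were low. rno-miR-219-2-3p, the 3p arm of the second miR-219 locus, had 205, 101, 154 and 46 reads in the CTL libraries 1 to 4 and 9, 3, 54 and 3 reads in the AA libraries. Thus 3 of the 4 AA rats were at 9 reads or fewer, whereas the third AA rat had more reads than the lowest CTL rat. The mean was 9.03 ± 4.86 CPM in the CTL group and 1.19 ± 1.70 CPM in the AA group (SD, n = 4 each), a log2 change of -2.94 ± 0.86 (standard error). The groups were separated by little. After TMM scaling the lowest CTL rat was at 3.75 CPM and the highest AA rat at 3.72 CPM, and when scaled by total counts the order was turned, at 3.35 and 3.91. Without the third AA rat the log2 change was -4.76.

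rno-miR-135a* had 27, 13, 17 and 19 reads in the CTL libraries and 5, 2, 4 and 9 reads in the AA libraries. Every AA rat was below every CTL rat, in reads as well as in CPM. Of all tested miRNAs 9.81% were so in CPM, and this arm was chosen by its fall. The means were 1.40 ± 0.493 and 0.326 ± 0.179 CPM (SD, n = 4 each), with a log2 change of -2.08 ± 0.45 (standard error). It reached 10 reads in the 4 CTL libraries and in no AA library, so that it passed the cutoff for testing, which was 10 reads in 4 or more libraries, through the CTL group alone.

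rno-miR-129-2* had 50, 46, 63 and 30 reads in the CTL libraries and 13, 16, 22 and 8 reads in the AA libraries, again with every AA rat below every CTL rat. The means were 3.37 ± 0.656 and 0.965 ± 0.429 CPM (SD, n = 4 each), and the log2 fold change was -1.81 (standard error 0.35). In both groups the library numbered 4 was the lowest.

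**Figure D1:**
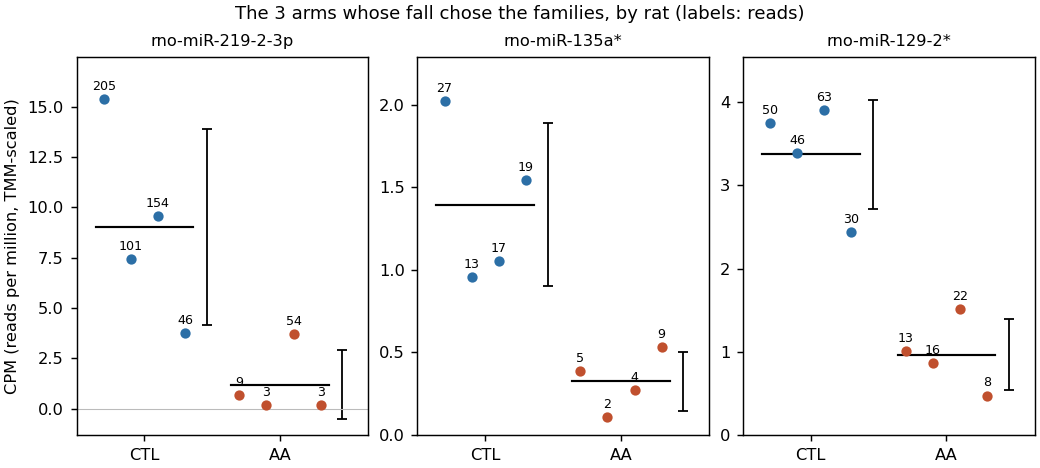
CPM of rno-miR-219-2-3p, rno-miR-135a* and rno-miR-129-2* in each of the 4 CTL and 4 AA rats, in the order of the library numbers, with the raw reads written above each point (horizontal line, group mean; bar beside it, SD). For rno-miR-219-2-3p the third AA rat, at 54 reads, sits level with the lowest CTL rat at 46 reads, while the other AA rats are at 9, 3 and 3 reads.

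Of the 6 tested rows that had not been chosen by their own fall, 2 were called and both were lower in the AA group. These were rno-miR-135a and rno-miR-135b, the main arms with 1 seed. Over all 367 miRNAs tested, 16.3% were called in either direction and 5.99% were called lower (edgeR's quasi-likelihood test, adjusted p under 0.05). All the rows come from the comparison in which the families were noticed, and these 2 belong to the family of a chosen arm.

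rno-miR-135a, the most abundant of the rows, had 1243, 989, 1304 and 514 reads in the CTL libraries and 257, 585, 438 and 446 reads in the AA libraries. The fourth CTL rat was far below the other CTL rats and had fewer reads than the second AA rat. After TMM scaling the groups were apart, with 41.9 CPM in the lowest CTL rat and 31.7 CPM in the highest AA rat, but when scaled by total counts they overlapped, at 37.4 and 38.5. The level fell from 72.2 ± 21.9 to 27.0 ± 5.28 CPM (SD, n = 4 each), to 37.5% of the CTL mean, with a log2 change of -1.42 with 0.27 as its standard error (edgeR, adjusted p = 0.0057).

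rno-miR-135b had 95, 114, 103 and 76 reads in the CTL libraries and 31, 70, 41 and 25 reads in the AA libraries. Every AA rat lay below every CTL rat, in reads, in CPM and when scaled by total counts. Over all tested miRNAs 9.81% had every AA rat below every CTL rat in CPM. The level fell from 7.02 ± 0.995 to 2.62 ± 0.962 CPM (SD, n = 4 each), to 37.4% of the CTL mean, with a log2 change of -1.41 with 0.30 as its standard error (edgeR, adjusted p = 0.0093).

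On the log2 scale the 2 main arms lay within a standard error of each other. Since their sequences differ at 1 base, a read with a sequencing error there could be counted on the other row, and the mismatches allowed on known miRNAs are not given in the sources used here. There were 6.76 to 13.1 reads of rno-miR-135a for each read of rno-miR-135b in the CTL libraries and 8.29 to 17.8 in the AA libraries. The highest ratio, 17.8, was in the fourth AA rat and rests on 25 rno-miR-135b reads. Whether reads crossed between the rows was not tested.

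The main arms of the other hairpins were not called. rno-miR-129 had 49, 29, 34 and 47 reads in the CTL libraries and 28, 25, 31 and 43 reads in the AA libraries, and the groups overlapped. Its means were 2.94 ± 0.943 and 2.05 ± 0.499 CPM (SD, n = 4 each), a log2 change of -0.52 with 0.31 as its standard error (edgeR, adjusted p = 0.29). rno-miR-219-5p had 50, 58, 103 and 59 reads in the CTL libraries and 53, 96, 67 and 163 reads in the AA libraries. Its means were 4.80 ± 1.14 and 5.89 ± 2.55 CPM (SD, n = 4 each), a log2 change of 0.30 with 0.32 as its standard error (edgeR, adjusted p = 0.54).

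rno-miR-219-1-3p, the opposite arm of the other miR-219 locus, had 11, 10, 7 and 17 reads in the CTL libraries and 15, 16, 12 and 14 reads in the AA libraries. Its means of 0.845 ± 0.397 and 0.921 ± 0.160 CPM (SD, n = 4 each) gave a log2 change of 0.14 with 0.36 as its standard error (edgeR, adjusted p = 0.82). The sign of this value and of that of rno-miR-219-5p turned when single libraries were left out. The 3p arms of the 2 miR-219 loci thus had unlike values, 13.2% of the CTL mean remaining in the AA group for rno-miR-219-2-3p and 109% for rno-miR-219-1-3p. That difference was not tested, because it contains an arm chosen by its fall.

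**Figure D2:**
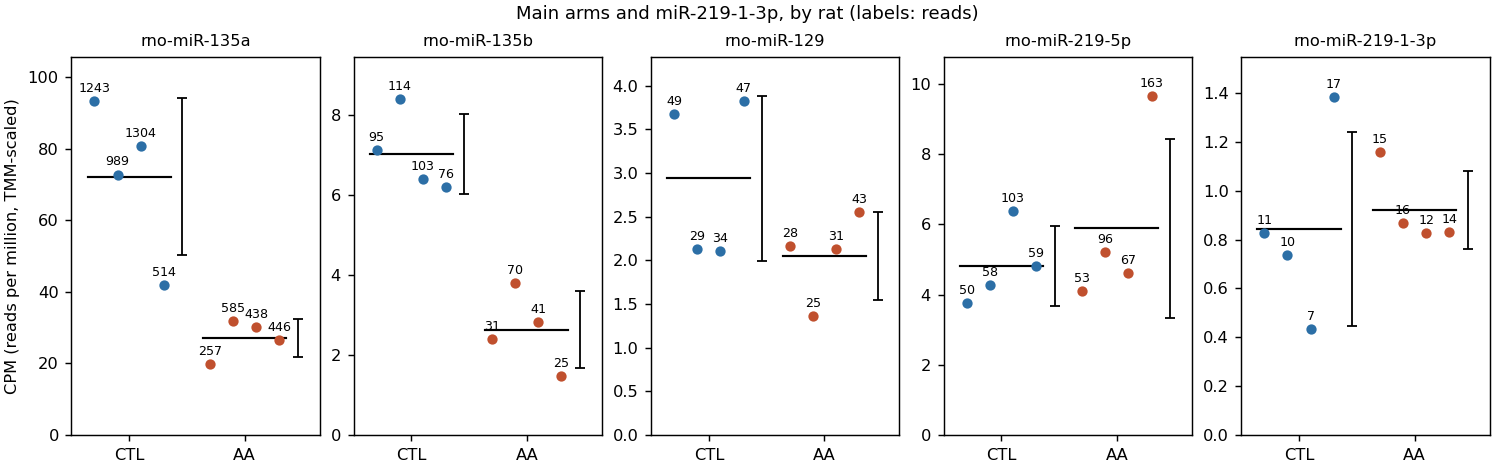
CPM of rno-miR-135a, rno-miR-135b, rno-miR-129, rno-miR-219-5p and rno-miR-219-1-3p in each of the 4 CTL and 4 AA rats, in the order of the library numbers, with the raw reads above each point (horizontal line, group mean; bar beside it, SD; each panel has its own axis from 0). The AA rats lie below the CTL rats for rno-miR-135a and rno-miR-135b, and the groups overlap in the other 3 panels.

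The table also lists rno-mir-129-2* and rno-mir-135a* in lower-case letters, apart from rno-miR-129-2* and rno-miR-135a*. In all, 61 rows are written so, and 33 of them have a namesake in the usual letters. What these rows count is not given in the sources used here, and they were kept apart. rno-mir-129-2* had 7, 11, 15 and 7 reads in the CTL libraries and 9, 15, 10 and 1 reads in the AA libraries, with a log2 change of -0.34 with 0.54 as its standard error (edgeR, adjusted p = 0.69). rno-mir-135a* had 4, 3, 2 and 1 reads in the CTL libraries and 1, 2, 1 and 1 reads in the AA libraries and was not tested. With the reads of both spellings added, a setting chosen after the data were seen, the log2 fold changes of rno-miR-129-2* and rno-miR-135a* were -1.52 and -2.06.

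rno-miR-135b*, the opposite arm of the miR-135b hairpin, had 0, 1, 0 and 3 reads in the CTL libraries and 2, 0, 0 and 0 reads in the AA libraries, too few to be tested or for a fold. As a share of the reads of both miR-135b arms it was 1.17% in the CTL group and 1.52% in the AA group on average (exact permutation test, two-sided, p = 1, where 0.0286 is the smallest p that 4 against 4 rats allow). A change in that share was not detectable at this depth.

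**Figure D3:**
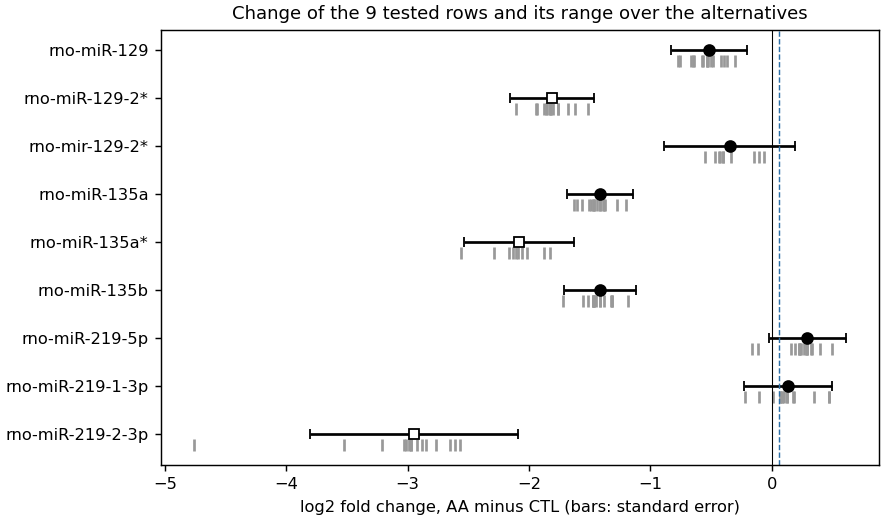
Log2 fold change (AA minus CTL) of the 9 tested rows, with bars for the standard error. White squares are the 3 arms chosen by their fall, grey ticks are the values under the alternatives, and the dashed line is the median over all 367 tested miRNAs at 0.06. rno-miR-135a and rno-miR-135b lie at -1.42 and -1.41, and the grey tick far to the left for rno-miR-219-2-3p, at -4.76, is the fit without the third AA rat.

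Opposite and main arms were compared within a library, where the scaling between libraries does not enter. rno-miR-219-2-3p made up 80.4%, 63.5%, 59.9% and 43.8% of the reads of its 2 arms in the CTL libraries, and 14.5%, 3.03%, 44.6% and 1.81% in the AA libraries. Hence the 3p arm outnumbered rno-miR-219-5p in 3 of the 4 CTL rats and in no AA rat, although the third AA rat, with a 95% Wilson interval of 36.1% to 53.5%, was level with the fourth CTL rat, at 34.7% to 53.4%. The mean shares were 61.9% ± 15.0 and 16% ± 19.9 (SD, n = 4 each). The intervals cover counting error only. Because rno-miR-219-5p pools 2 loci, these shares are not those of a single hairpin. At 21 nt rno-miR-219-5p also lies below the gel cut of 22 to 30 nt, whereas rno-miR-219-2-3p has 22 nt. What the cut did to the level of the shares was not tested.

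rno-miR-129-2* made up 50.5%, 61.3%, 64.9% and 39.0% of the reads of its pair in the CTL libraries and 31.7%, 39.0%, 41.5% and 15.7% in the AA libraries, with means of 53.9% ± 11.7 and 32.0% ± 11.6 (SD, n = 4 each). The fourth CTL rat lay among the AA rats. Left out of these shares is the lower-case rno-mir-129-2*, with 40 reads in the CTL group and 35 in the AA group. The row in usual letters had 189 and 59, so adding the lower-case reads would raise the AA share by more than the CTL share. Because rno-miR-129 pools 2 loci, these shares are not those of a single hairpin either. Here too the main arm, rno-miR-129 with 21 nt, lies below the gel cut, and rno-miR-129-2* has 22 nt.

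rno-miR-135a* was a small part of its hairpin in both groups. Its share was 2.13%, 1.30%, 1.29% and 3.56% in the CTL libraries and 1.91%, 0.341%, 0.905% and 1.98% in the AA libraries, so that the groups overlapped, with means of 2.07% ± 1.07 and 1.28% ± 0.797 (SD, n = 4 each). Both arms of miR-135a were thus lower in the AA group, whereas rno-miR-129-2* and rno-miR-219-2-3p were lower beside main arms that were not called, and rno-miR-219-1-3p was not called either. That contrast between hairpins was not tested. For rno-miR-219-1-3p the share of its pair was 15.4% ± 6.77 in the CTL group and 14.9% ± 5.79 in the AA group (SD, n = 4 each). These shares are given without a test, since 3 of these 4 opposite arms were chosen by their fall.

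**Figure D4:**
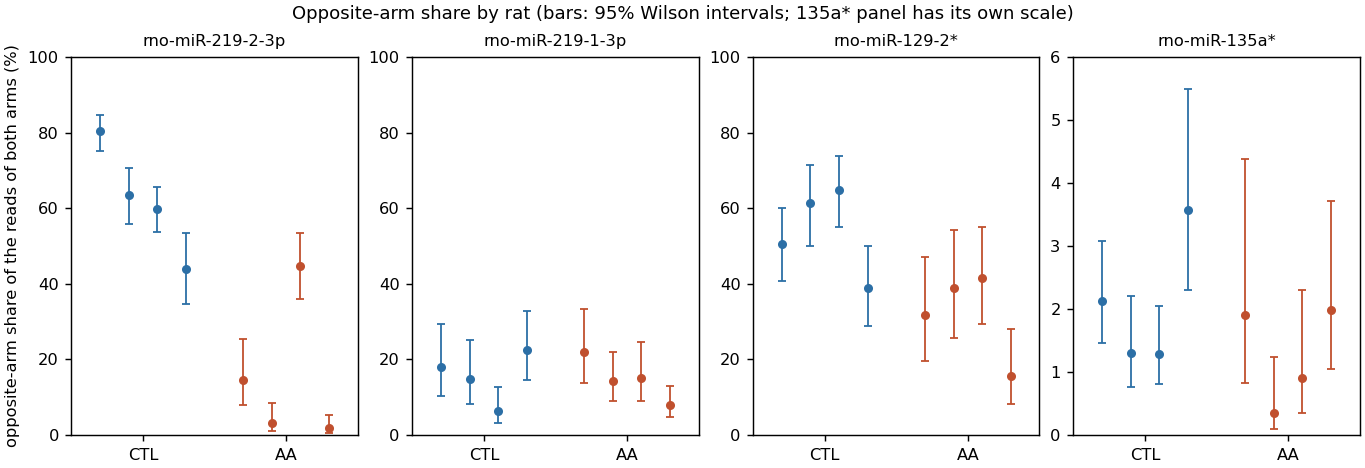
Share of the opposite arm in the reads of both arms, in percent, for each of the 4 CTL and 4 AA rats, with 95% Wilson intervals (the rno-miR-135a* panel has its own scale). For rno-miR-219-2-3p the AA rats are at 14.5%, 3.03%, 44.6% and 1.81%, and the lowest CTL rat is at 43.8%. The groups overlap in every panel.

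In order of mean CPM in the CTL group, which counts reads of mature sequences of 21 to 23 nt and is not scaled by length, rno-miR-135a (72.2) came before rno-miR-219-2-3p (9.03), rno-miR-135b (7.02), rno-miR-219-5p (4.80), rno-miR-129-2* (3.37), rno-miR-129 (2.94), rno-miR-135a* (1.40) and rno-miR-219-1-3p (0.845). Only rno-miR-129 and rno-miR-135a were above the next row in every pairing of CTL rats, and the other neighbours in this order had ranges that overlapped. In the AA group rno-miR-219-2-3p, at 1.19, came after rno-miR-129, and rno-miR-135a* was the lowest tested row at 0.326. The arms of 21 nt, rno-miR-129 and rno-miR-219-5p, lie below the gel cut, and whether the cut changed their place was not tested.

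The tested miRNAs outside these families whose centred log2 CPM lay closest to rno-miR-219-2-3p over the 8 libraries were rno-miR-375, rno-miR-382* and rno-miR-494, at a root mean square distance of 1.05, 1.45 and 1.57. For rno-miR-129-2* they were rno-miR-382*, rno-miR-410 and rno-miR-411, at 0.291, 0.482 and 0.534. For rno-miR-135a* they were rno-miR-653, rno-miR-139-3p and rno-miR-375, at 0.512, 0.539 and 0.557. The distances used a prior count of 2, which shrinks the differences of rows with few reads. The log2 changes that follow came from the edgeR fit without that prior count, so they are not on the same scale as the distances. Because these arms were chosen by their fall, their closest profiles were likely to fall too. The log2 changes of rno-miR-653 and rno-miR-139-3p were -1.14 and -0.94, against -2.08 for rno-miR-135a*. Those of rno-miR-382*, rno-miR-410 and rno-miR-411 were -1.56, -1.18 and -0.99, against -1.81 for rno-miR-129-2*. That of rno-miR-494 was -1.32, against -2.94 for rno-miR-219-2-3p. rno-miR-375, a miRNA of endocrine cells, had a log2 fold change of -2.46. rno-miR-382*, whose gene lies in the imprinted Dlk1-Dio3 cluster with those of rno-miR-410, rno-miR-411 and rno-miR-494, went from a mean of 3.82 to 1.29 CPM, close to the level of rno-miR-129-2*.

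Because miR-129 and miR-219 are known from nervous tissue, a list of 13 neural miRNAs was set beside them. Of these, 12 were rows, 7 were tested, and 1 was called, rno-miR-338, a miRNA of oligodendrocytes, with a log2 change of -0.76 (edgeR, adjusted p = 0.0355). 1 call among 7 is close to the 16.3% called over all tested miRNAs. The median log2 fold change of the 7 was 0.24, against 0.06 over all tested miRNAs. The list summed to 1218 to 1468 CPM in the CTL libraries and to 918 to 1322 CPM in the AA libraries, most of it rno-miR-7a and rno-miR-9. rno-miR-124, which marks neurons, had 0 to 3 reads in each CTL library and 7 to 32 in each AA library, and rno-miR-124* had at most 1 read.

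Markers of other cell types were set beside the families as well. The 4 leukocyte miRNAs miR-142-3p, miR-142-5p, miR-150 and miR-223 summed to 914 to 1264 CPM in the CTL libraries and to 2057 to 4121 CPM in the AA libraries, and 2 of the 4, miR-142-3p and miR-223, were called higher, against 10.4% called higher over all tested miRNAs. Of the 6 nephron miRNAs, whose sums overlapped between the groups, 4 were not called and 2 were called lower, against 5.99% of all tested miRNAs: rno-miR-194 (adjusted p = 0.0499) and rno-miR-204 (adjusted p = 0.034, both from edgeR), and the median of the 6 was -0.50. Their sum was mostly rno-miR-30a and rno-miR-192, so its overlap does not describe rno-miR-194 or rno-miR-204. The log2 changes of the 6 were all negative, from -0.80 for rno-miR-204 to -0.13 for rno-miR-30c. The part of these marker levels in the falls of miR-135a and miR-135b was not tested, and in bulk kidney RNA fewer cells of a type and less of a miRNA per cell cannot be told apart.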

How the data were processed

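Small RNA of 4 CTL and 4 AA rat kidneys was cut from a gel at inserts of 22 to 30 nt, so that the arms of 21 nt (rno-miR-129, rno-miR-219-5p) lie below the cut, and read with an Illumina GA II. The authors deposited raw counts of reads per known rat miRNA, 1 column per rat, after dropping reads under 17 bases, trimming those over 26 bases, and mapping with miRanalyzer and Bowtie to miRBase version 17. The versions of the tools are not given in the sources used here. Columns were assigned by sample title. PCR copies of a molecule were counted as separate reads.

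Counts were compared with edgeR 4.0.16 in R 4.3.3 (TMM, glmQLFit, glmQLFTest, two-sided, Benjamini-Hochberg over all tested miRNAs, threshold 0.05) for the 367 miRNAs that had 10 or more reads in 4 or more libraries. The step was tested on simulated counts. Standard errors are the log2 fold change divided by the square root of F. Likeness of profiles was taken on CPM (log2 scale, prior count 2) centred over the 8 libraries. The labels list DESeq among the tools without its use. Library pairs of 1 group all differed beyond counting noise. The members, the lists (neural, liver, nephron, leukocyte) and the tests were chosen with earlier results of these data known. Named are all rows of the families, the list members and the 3 closest profiles of each chosen arm. Alternatives were the Wald test of DESeq2 1.42.0, scaling by its size factors or by total counts, no filter, 10 reads in every library, a block for the library number, leaving out each library and, for arm shares, 0.5 read added or reads summed. Added after the data were seen were the 6 libraries numbered 1 to 3 and the sum of rows that differ in letter case. Sequences are from RefSeq (GRCr8), read with Python 3.11.15.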

Additional observations from a re-analysis of the deposited data

Results flagged for a closer look

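In 4 of the 22 sets of 4 rats examined, 1 value lay far from the rest by Dixon's test at its 95% level. About 1 set in 20 does so by chance if values are normally distributed. That rate need not hold for rows of few reads, so no excess over chance is shown. rno-miR-219-2-3p was at 3.72 CPM in the third AA library (54 reads) against 0.163 to 0.696 in the other AA libraries. rno-miR-219-1-3p was at 1.16 CPM in the first AA library (15 reads) against 0.826 to 0.868. rno-mir-129-2*, the lower-case row, was at 0.0592 CPM in the fourth AA library (1 read) against 0.688 to 0.814. rno-miR-135b* was at 0.155 CPM in the first AA library (2 reads) and at 0 in the other AA libraries. The last 3 values rest on at most 15 reads each. What sets these libraries apart was not tested.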

How the results depend on the processing

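rno-miR-135a and rno-miR-135b were called lower in each of the 16 alternative fits, with log2 fold changes of -1.63 to -1.20 and of -1.72 to -1.19 and adjusted p of 3.2e-06 to 0.021 and of 4.8e-05 to 0.032. These fits reuse the same libraries, and rno-miR-135a is cut from the hairpin of a chosen arm, so their agreement is not independent support. The 3 arms chosen by their fall, given without a test, kept their direction. Their choice by that fall in the same libraries made this likely, so it adds no support. Their log2 changes were -2.11 to -1.52 for rno-miR-129-2* (15 fits) and -4.76 to -2.56 for rno-miR-219-2-3p (15 fits). That of rno-miR-135a* was -2.56 to -1.82 (10 fits), none of them without a CTL library. With any CTL library left out, rno-miR-135a* missed the cutoff for testing. No uncalled row became called. The log2 change of rno-miR-219-5p ranged from -0.17 (without the fourth AA library) to 0.40 with single libraries left out and was -0.11 in the 6 libraries numbered 1 to 3. That of rno-miR-219-1-3p ranged from -0.22 (without the third CTL library) to 0.47 and was -0.11 without the first AA library. The cause was not tested.

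The 60 calls (22 lower) became 35 to 51 (10 to 21 lower) with single libraries left out, with 37 (10 lower) without the first CTL library, 35 (10 lower) without the second and 14 lower without the fourth. With total counts 54 were higher and 14 lower, against 38 and 22, and the median log2 change of the tested miRNAs went from 0.06 to 0.27. The miR-135b share difference (AA minus CTL) of 0.348 percentage points ranged from -1.17 to 1.23 without single libraries and was -0.0405 without the first or the third CTL library.

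The titles number the libraries 1 to 4 in each group. With this replicate block, 78 miRNAs were called, 31 of them lower. Deviations of same-numbered libraries correlated at 0.049, 0.20, 0.14 and 0.35 across miRNAs. The first of these is under the 0.1 asked of every pair, and the labels name nothing that a number shares, so the numbers were not taken as pairs. As a hint from the data the other way, 6 of the 8 libraries correlated best with their own number.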
